A study of Mus musculus with 10 samples.

Results

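Complement components and receptors were followed as a set of 9 genes in mouse quadriceps: the C1q chain genes C1qa, C1qb and C1qc, the components C3 and C4b, the regulators Serping1 and Cd55, and the receptors C3ar1 and C5ar1. They were chosen by symbol from the 24063 symbols of the deposited count tables, and where a symbol had several transcript identifiers the one with the largest total count was kept. All 9 were present and all 9 passed the filter on low counts. The study compared 5 libraries from mice on facility water (Control) with 5 from mice given the same water with a supplement named 1C-MIM, with a composition not given in the sources used here. Both groups were wild-type C57BL mice of 17 to 20 months, supplemented or not for 1 to 3 months. In both groups the tibialis anterior (TA) had been injured, and RNA was taken from quadriceps that had not. Water was provided by cage, 150 mL for at most 5 mice. Titles number the libraries within a group, and file names number the animals. No label names a cage or litter for a library, so an effect of cage cannot be told apart from that of 1C-MIM. The p-values set group differences against the spread between these animals, not between cages.

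Complement is a cascade of plasma proteins that tags targets for uptake and raises inflammation. In its classical pathway the recognition protein C1q, built from equal parts of an A, a B and a C chain, binds a target and starts cleavage of C4 and C2. These form the convertase that splits C3, the protein on which all routes of activation meet. The small fragments C3a and C5a signal through the receptors encoded by C3ar1 and C5ar1. Serping1 encodes the C1 inhibitor, and Cd55 encodes decay-accelerating factor, a membrane protein that takes convertases apart. Many components in blood come from the liver, but C1q is made mainly by macrophages and related myeloid cells, and tissue cells such as fibroblasts make C3, C4 and C1 inhibitor locally.

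In 1C-MIM muscle, the C1q chains, both anaphylatoxin receptors and C4b were lower than in Control, and no member was higher. Of the 9 members, 6 fell (edgeR quasi-likelihood test, Benjamini-Hochberg adjusted p under 0.05 over 13880 tested genes), against a background of 11.8% of all tested genes called lower and 9.78% called higher. With library totals as the only scaling these were 2895 genes lower and 606 higher, against 1642 and 1357 with composition factors, and 7 members fell. All 9 fold changes were negative, with a median of -0.81 on the log2 scale and 0.00 over all tested genes. At an unadjusted p under 0.05, a looser cut, 8 members were lower and 0 higher. The share of all tested genes at that cut was not counted. DESeq2 and limma-voom each called 7 members lower and 0 higher. Over all genes, DESeq2 called 1786 lower and 1785 higher, and limma-voom 1629 lower and 1395 higher. In the same 6 genes the groups did not overlap, with every 1C-MIM library below every Control library, which was so for 7.98% of all tested genes.

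Total counts per library, over the kept transcripts, were 28521250 to 31771291. Expression is given as counts per 1000000 (CPM), scaled by composition factors. The data matched skeletal muscle, since the myofibre markers summed to 161012 to 184041 CPM in Control and 176762 to 201764 in 1C-MIM. Whether the muscle was quadriceps was not tested. Control 1 stood apart by neural transcripts: the neuronal tubulin gene Tubb3 reached 10.3 CPM there and at most 1.68 elsewhere, so counts are also given without it. Without Control 1, 7 members were lower, among them C1qa (-1.18), C1qb (-1.17), C3ar1 (-0.88 on the log2 scale) and C5ar1 (-0.81). Over all genes, 1559 were then lower and 1436 higher. Without Control 1 and Control 5 together, 6 members were lower, with 976 genes lower and 832 higher over all.

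The C1q chain genes lie next to each other on chromosome 4, in the order C1qb, C1qc and C1qa, in the RefSeq annotation of build GRCm38.p6. Since they moved together, the promoters that RefSeq gives for this cluster are shown. They run from 250 bases before to 50 bases after the annotated start, 5′ to 3′ on the gene's strand. Capitals mark GAGGAA or its reverse complement TTCCTC. This string holds GGAA, the core letters bound by ETS factors such as the macrophage factor PU.1. Other GGAA letters in the windows were not marked or counted. The C1qb promoter is chr4:136886151-136886450 and that of C1qc is chr4:136892865-136893164, both on the minus strand of GRCm38.p6.
C1qb: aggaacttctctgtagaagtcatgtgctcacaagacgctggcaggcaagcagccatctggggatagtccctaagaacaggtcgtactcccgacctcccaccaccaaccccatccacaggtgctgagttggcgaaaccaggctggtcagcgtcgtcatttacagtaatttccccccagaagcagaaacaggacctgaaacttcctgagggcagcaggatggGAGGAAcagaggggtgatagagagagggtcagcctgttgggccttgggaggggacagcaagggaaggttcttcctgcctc
C1qc: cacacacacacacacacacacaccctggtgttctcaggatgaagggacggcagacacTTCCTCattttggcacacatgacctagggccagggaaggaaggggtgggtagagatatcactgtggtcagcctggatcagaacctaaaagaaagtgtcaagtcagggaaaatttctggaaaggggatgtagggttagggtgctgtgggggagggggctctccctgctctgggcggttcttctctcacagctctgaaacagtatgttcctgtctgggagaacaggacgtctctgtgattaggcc

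Each of these windows held the motif at 1 position, starting at base 221 in C1qb and base 58 in C1qc. It occurred, on either strand, in 28.3% of the 32851 RefSeq promoters of the same length. Promoters were found for 6 of the 9 members, with C1qa, C4b and Serping1 without an entry. The windows of C3, C3ar1, C5ar1 and Cd55 held neither GAGGAA nor TTCCTC, and shorter GGAA letters were not searched there.

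C1qa, which encodes the A chain, gave 39.2, 26.2, 54.8, 42.2 and 48.3 CPM in Control 1 to 5 and 15.4, 18.1, 21.7, 16.9 and 22.5 CPM in 1C-MIM 1 to 5. The groups did not overlap, and Control 2 was the lowest Control. The mean fell from 42.1 ± 10.7 to 18.9 ± 3.06 CPM (SD over 5 libraries each), or by a log2 fold change of -1.15 (SE 0.17; adjusted p by edgeR = 0.00174). C1qb, the B chain gene, gave 48.9, 31.4, 62.7, 50.04 and 55.8 CPM in Control and 17.8, 21.3, 26.1, 21.6 and 24.4 CPM in 1C-MIM, in the same order of libraries. Its log2 fold change was -1.16 (SE 0.16; adjusted p by edgeR = 0.00102). C1qc, the C chain gene, gave 37.9, 28.4, 55.7, 42.0 and 49.6 CPM in Control and 17.4, 17.9, 24.3, 21.0 and 23.5 CPM in 1C-MIM. Its log2 fold change was -1.04 (SE 0.16; adjusted p by edgeR = 0.00217). For C1qa, C1qb and C1qc alike, Control 3 was highest, Control 5 next and Control 2 lowest, and 1C-MIM 1 was the lowest library of all. The mean in 1C-MIM was 45.0% of the Control mean for C1qa, 44.6% for C1qb and 48.8% for C1qc. These values rest on 447 to 2029 reads per gene and library.

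The balance between the chains did not change detectably. The log2 ratio of C1qb to C1qa within a library was 0.25 ± 0.049 in Control and 0.23 ± 0.087 in 1C-MIM (SD, n = 5 per group; exact permutation test over all assignments of the libraries, two-sided p = 0.794, adjusted p = 0.818 over 7 ratios). The log2 ratio of C1qc to C1qa was 0.02 ± 0.061 in Control and 0.14 ± 0.12 in 1C-MIM, a difference of 0.11 (exact permutation two-sided p = 0.0952, adjusted p = 0.133). C1qa and C1qb were the members most alike over the 10 libraries. Their log2 CPM, each centred on its own mean, differed by 0.049 on average, against 0.087 for C1qa and C1qc and 0.49 for C1qa and Cd55. Of the protein-coding genes beside the cluster, Zbtb40 had 12.7 CPM in Control and 13.9 CPM in 1C-MIM (log2 fold change 0.13, SE 0.072; adjusted p by edgeR = 0.209). Ephb2, on the other side, was near 1 CPM and did not pass the test (log2 fold change -0.16, SE 0.31; adjusted p by edgeR = 0.738), and Epha8 was too low to be tested.

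**Figure D1:**
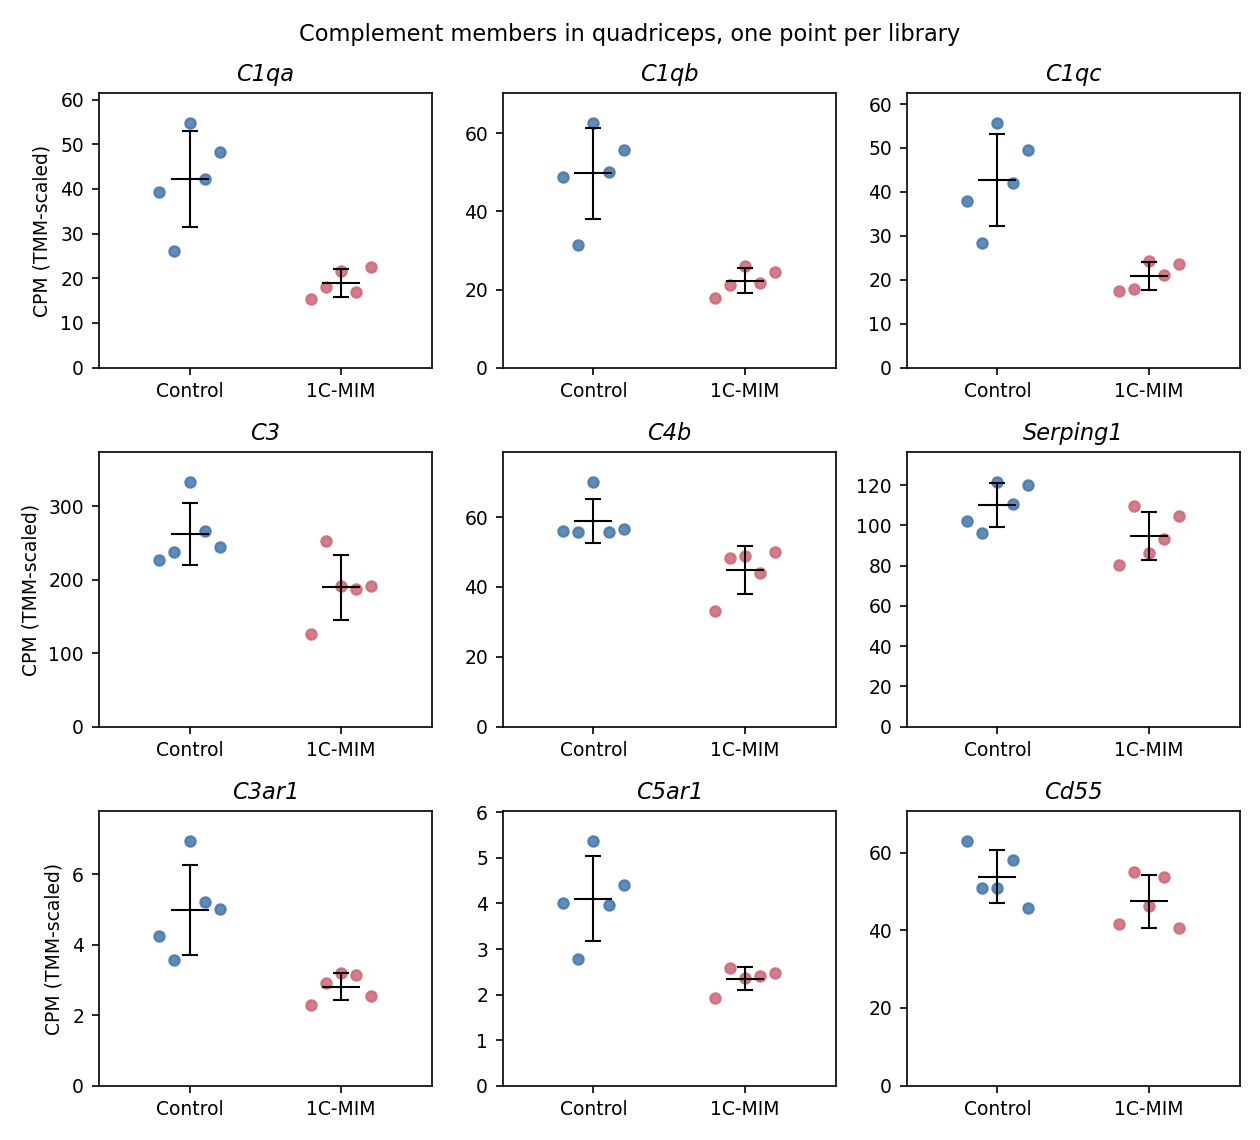
Expression of the 9 members in CPM (y axis, from 0) in 5 Control and 5 1C-MIM libraries, each point a library and each bar the mean ± SD. The groups are apart for C1qa, C1qb, C1qc, C4b, C3ar1 and C5ar1 and overlap for C3, Serping1 and Cd55.

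The receptor genes were much lower in level than the components and moved alike. C3ar1, the receptor gene for C3a, gave 4.24, 3.55, 6.95, 5.22 and 5.02 CPM in Control 1 to 5 and 2.28, 2.92, 3.19, 3.14 and 2.55 CPM in 1C-MIM 1 to 5. Every 1C-MIM library lay below every Control library, although Control 2 and 1C-MIM 3 were close. C3ar1 fell with a log2 fold change of -0.83 (SE 0.17; adjusted p by edgeR = 0.00555). C5ar1, the receptor gene for C5a, gave 4.00, 2.77, 5.37, 3.98 and 4.41 CPM in Control and 1.93, 2.58, 2.36, 2.40 and 2.48 CPM in 1C-MIM. Control 2 was again the lowest Control, just above the highest 1C-MIM library. C5ar1 fell with a log2 fold change of -0.81 (SE 0.16; adjusted p by edgeR = 0.00496). These values rest on 66 to 225 reads per library for C3ar1 and 56 to 174 for C5ar1. C5ar1 had 2 transcript identifiers with the same total of 980 reads, so the choice between them did not alter its level. The log2 ratio of C3ar1 to C5ar1 differed by -0.03 between the groups (exact permutation two-sided p = 0.818, also after adjustment over 7 ratios), with group SDs of 0.13 and 0.16.

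C3 and C4b, the thioester proteins that attach to targets, had smaller log2 fold changes in value than the C1q chains. C4b gave 56.0, 55.7, 70.1, 55.7 and 56.6 CPM in Control 1 to 5 and 33.1, 48.4, 49.0, 44.0 and 49.9 CPM in 1C-MIM 1 to 5. Control 3 stood above the other Controls, which lay within 1 CPM of each other, and 1C-MIM 1 was the lowest library. C4b fell from 58.8 ± 6.30 to 44.9 ± 6.94 CPM (SD over 5 libraries each; log2 fold change -0.39, SE 0.11; adjusted p by edgeR = 0.0208). This call was lost without 1C-MIM 4 (-0.38, edgeR adjusted p = 0.0552). Mouse C4a is a close copy of C4b, and reads that fit both could have been split between them; C4a held only 0.10 to 0.27 CPM, so the level of C4b is given with that reserve.

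C3 gave 227, 238, 333, 267 and 245 CPM in Control 1 to 5 and 127, 253, 191, 187 and 191 CPM in 1C-MIM 1 to 5. The groups overlapped by 1C-MIM 2, which lay above 3 of the 5 Controls, and 4 of the 5 1C-MIM libraries lay below the lowest Control. The log2 fold change was -0.47 (95% interval -0.81 to -0.13, SE 0.16) and just missed the threshold (edgeR adjusted p = 0.0519). Under 10 of 23 alternatives the adjusted p of C3 was under 0.05, and it ranged from 0.0184 without 1C-MIM 2 to 0.109. With each library's trend of expression with transcript length removed, the log2 fold change of C3, a long transcript of 5133 bases, was -0.58 (edgeR adjusted p = 0.0229). The short C1q transcripts, of 1054 to 1082 bases, then had -0.95 (C1qa), -0.96 (C1qb) and -0.83 (C1qc), all past the threshold, and C4b, also a long transcript, had -0.51.

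C3 is also the member whose promoter window had the most matches to the letters TTNNGNAA and TTNCNNAA, both strands of a loose C/EBP motif, a factor family of the acute phase response. The window, chr17:57228087-57228386 on the minus strand of GRCm38.p6, from RefSeq, is shown with these letters in capitals.
C3: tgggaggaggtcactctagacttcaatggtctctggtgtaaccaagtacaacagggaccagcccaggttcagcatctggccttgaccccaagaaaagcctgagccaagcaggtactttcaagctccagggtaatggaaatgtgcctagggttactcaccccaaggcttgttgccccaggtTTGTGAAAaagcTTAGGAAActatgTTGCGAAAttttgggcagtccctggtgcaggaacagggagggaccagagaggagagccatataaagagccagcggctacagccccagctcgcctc

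The letters began at bases 181, 193 and 206 of that window, and 40.7% of the RefSeq promoters held at least 1 match. The palindrome TTCNNNGAA, which STAT factors bind, was in none of the 6 windows found and in 8.30% of all. A match is a string of letters and was not tested as a binding site.

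The regulators did not pass the test. Serping1, the C1 inhibitor gene, gave 102, 96.1, 122, 110 and 120 CPM in Control 1 to 5 and 80.5, 109, 86.4, 93.2 and 104 CPM in 1C-MIM 1 to 5. The groups overlapped, with 3 of 5 1C-MIM libraries below the lowest Control. Its log2 fold change was -0.21 (95% interval -0.41 to -0.02, edgeR adjusted p = 0.103). It was -0.10 once the length trend was taken out. Cd55 gave 63.0, 51.0, 51.0, 58.1 and 45.9 CPM in Control and 41.5, 55.0, 46.3, 53.8 and 40.5 CPM in 1C-MIM. Here 3 of 5 1C-MIM libraries lay below the Control mean. The log2 fold change of Cd55 was -0.18 (95% interval -0.40 to 0.04, edgeR adjusted p = 0.216). These intervals still hold decreases of 0.41 and 0.40 on the log2 scale.

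Whether the C1q chains moved more than Serping1, C4b and C3 was tested on ratios within a library. Such ratios do not depend on scaling but can move with a trend over transcript length. Cd55, C3ar1 and C5ar1 were not set against the chains in this way. The log2 ratio of Serping1 to the mean of the C1q chains was 1.33 ± 0.25 in Control and 2.201 ± 0.24 in 1C-MIM, a difference of 0.87 (SD, n = 5 per group; exact permutation test, two-sided p = 0.00794, the smallest that this design allows, adjusted p = 0.0185 over 7 ratios). All 5 1C-MIM libraries, at 1.85 to 2.52, lay above the Controls, at 1.08 to 1.75. The log2 ratio of C4b to the C1q chains differed by 0.69, with 0.97 to 1.34 in 1C-MIM and 0.15 to 0.96 in Control (exact permutation p = 0.00794, adjusted p = 0.0185). The highest Control, Control 2, was close to the lowest 1C-MIM library. For C3 the difference was 0.60, with overlapping groups (exact permutation p = 0.0317, adjusted p = 0.0556). These ratios were also formed after taking out each library's length trend, a choice made after seeing the data. The Serping1 ratio then differed by 0.79, without overlap (exact permutation adjusted p = 0.0278). The C4b ratio differed by 0.38 with overlapping groups, and its call was lost (exact permutation adjusted p = 0.0741). The C3 ratio differed by 0.31 (exact permutation adjusted p = 0.122).

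**Figure D2:**
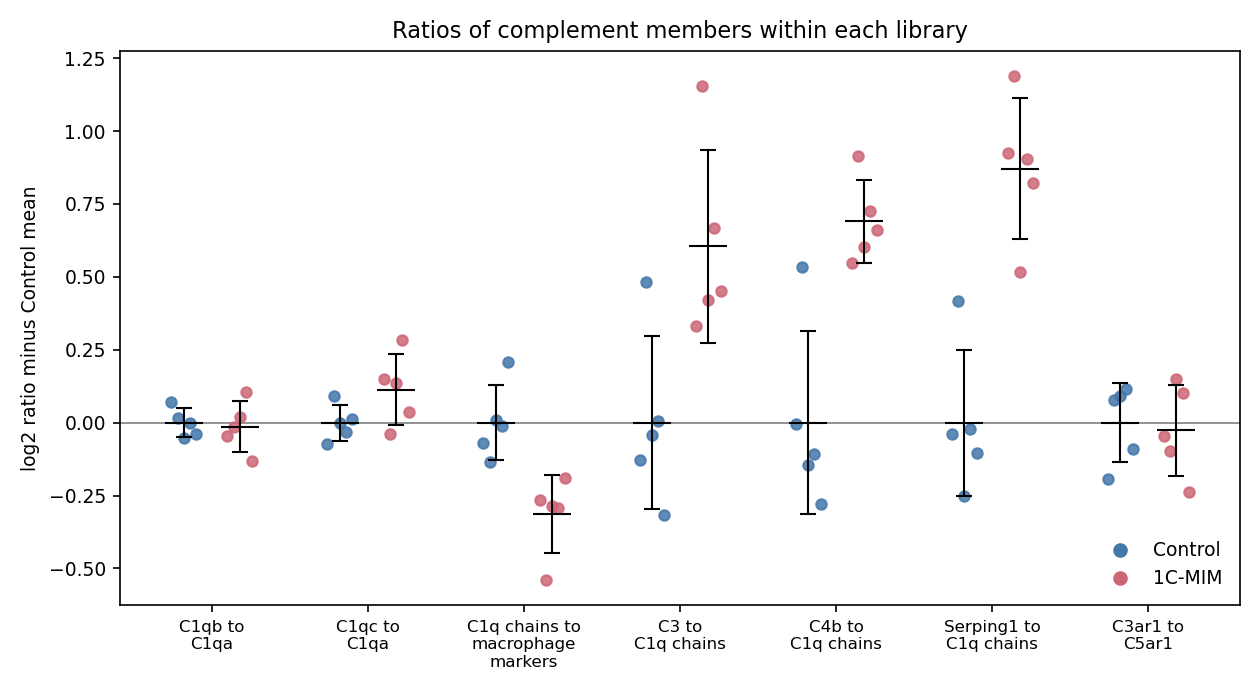
Log2 ratios between members within each library, minus the Control mean of that ratio (y axis), for 7 ratios; points are libraries and bars the mean ± SD of 5. The ratios of Serping1 and C4b to the C1q chains are higher in all 1C-MIM libraries, while C1qb to C1qa and C3ar1 to C5ar1 lie around 0 in both groups.

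Per kilobase of transcript, which allows genes to be compared, Serping1 had the highest level in Control with 60.4 ± 6.05 CPM per kb (SD, n = 5). It was followed by C3 with 51.1 ± 8.25, C1qb with 46.9 ± 10.9, C1qc with 40.5 ± 10.02 and C1qa with 39.0 ± 9.92 CPM per kb. The ranges of each of these and the next one overlapped, so their order is not resolved beyond the spread. Cd55 followed with 21.3 ± 2.68 CPM per kb and a range of 18.1 to 24.9, which just overlapped that of C1qa at its lowest, 24.2 in Control 2. C4b was at 10.9 ± 1.17 CPM per kb and apart from Cd55, and the receptors were lowest, with C5ar1 at 1.65 ± 0.377 and C3ar1 at 1.16 ± 0.297 CPM per kb, in overlapping ranges. In 1C-MIM, Serping1 (52.1 ± 6.64) and C3 (37.0 ± 8.70 CPM per kb) were again the highest. The C1q chains, at 17.5 to 20.9 CPM per kb, were then level with Cd55 at 18.8 ± 2.66.

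In a bulk sample, fewer cells of a type and less RNA per cell cannot be told apart. Macrophage markers moved with the members. Of 15 listed, 14 were tested, with 10 lower, 0 higher and 4 not past the threshold. The share over all tested genes was 11.8% lower. The median log2 fold change of these markers was -0.94. Their summed level was 204 to 388 CPM in Control and 126 to 189 CPM in 1C-MIM, and no macrophage marker was at 0 in all libraries. The lysosomal markers Cd68 (-1.34, SE 0.14) and Lyz2 (-1.33, SE 0.15) fell. The markers often used for resident macrophages were divided: Folr2 fell by 0.76 (SE 0.19; adjusted p by edgeR = 0.0156), and Cd163 (0.19, SE 0.17), Lyve1 (-0.06, SE 0.15) and Mrc1 (-0.22, SE 0.17) did not pass the test, nor did the uptake receptor gene Mertk (0.32, SE 0.16). The log2 ratio of the C1q chains to the mean of the 14 markers was 2.15 ± 0.13 in Control and 1.84 ± 0.13 in 1C-MIM, a difference of -0.31 without overlap (n = 5 per group; exact permutation two-sided p = 0.00794, adjusted p = 0.0185). It was -0.18 with the length trend removed (exact permutation adjusted p = 0.0278). Cx3cr1 (-1.78), Aif1 (-1.45), Cd68, Lyz2, Tyrobp (-1.22) and Emr1 (-1.20) fell more in value than each C1q chain. Csf1r (-0.58), Cd14 (-0.80), Folr2, Mrc1 and Lyve1 had smaller decreases, Fcgr1 (-1.08) lay among the chains, and Cd163 and Mertk were positive. The sign of the ratio difference therefore holds for the mean of these 14 markers, and other choices of markers were not tested. The part of the macrophage markers in the members' changes was not tested.

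The other cell types a muscle sample can hold were listed as well, beside a background of 11.8% of tested genes lower and 9.78% higher. Of 9 markers of fibro-adipogenic cells, the connective tissue cells of muscle, 5 were lower and 0 higher. The lower ones were Col3a1 (-1.555), Col1a1 (-1.09), Thy1 (-0.69), Lum (-0.46) and Dpt (-0.32). Pdgfra (0.03), Dcn (0.07), Pi16 (-0.27) and Gsn (-0.11) did not pass. Their summed level was 2447 to 3201 CPM in Control and 1849 to 2739 CPM in 1C-MIM, with Gsn at a mean of 1675 CPM in Control. Of 6 endothelial markers 4 were higher and 0 lower, at 165 to 233 CPM in Control and 235 to 270 CPM in 1C-MIM. Among neutrophil markers, 1 of 7 was tested and was lower; they summed to at most 4.05 CPM in any library, and the neutrophil elastase and myeloperoxidase genes Elane and Mpo had at most 1 and 3 reads in a library. Of 7 lymphocyte markers 4 were tested and 1 was lower, with sums of 2.67 to 7.37 CPM in Control and 1.99 to 3.18 CPM in 1C-MIM. The 5 hepatocyte markers summed to 4.72 CPM in Control 1, 0.587 to 0.930 CPM in the other Controls and 0.893 to 1.49 CPM in 1C-MIM. In Control 1 the transthyretin gene Ttr made up 3.94 CPM, against at most 0.093 CPM in any other library, and the albumin gene Alb was at most 1.00 CPM in any library. These lists' part in the results was not tested.

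The genes with the profile most like the mean of the C1q chains, by the mean absolute difference of centred log2 CPM over 10 libraries, were Fcer1g, the signalling chain of Fc receptors, at 0.068, the selectin ligand gene Selplg at 0.10 and the MHC class II gene H2-Ab1 at 0.11. Next came Unc93b1, a chaperone of endosomal Toll-like receptors, and the leukocyte receptor gene Cd84, both at 0.11; the median over 11841 candidate genes was 0.57. Nearest to C3 were Nrm (0.077), Tomt (0.099), Rassf4 (0.10), Arc (0.11) and the collagen VI gene Col6a3 (0.11), against a median of 0.31. Nearest to Serping1 were Cd34 (0.029), a marker of progenitor and endothelial cells, and C1s1 (0.032), the gene of the C1s protease that C1 inhibitor binds. Dpep1 (0.045), Vat1 (0.057) and Gas1 (0.060) followed, against a median of 0.20.

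Outside the 9 members, 49 other complement genes were listed by role, and 29 were tested. Of these, 8 fell, 1 rose and 20 did not pass the test, with a median log2 fold change of -0.16. The background, for these genes and for each role below, was again 11.8% called lower and 9.78% called higher. The 20 genes that were not tested were low or absent: Mbl1, Mbl2, Fcnb, C8a and C8b had 0 reads in all libraries. Daf2, the older symbol of the Cd55 copy Cd55b, had at most 0.069 CPM, so that Cd55 held nearly all reads of the pair.

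All 3 genes of the alternative pathway, which amplifies C3 cleavage, were lower without overlap between the groups, as were 7.98% of all tested genes. Cfd, the adipocyte protease factor D, gave 222, 230, 239, 221 and 270 CPM in Control 1 to 5 and 144, 151, 106, 125 and 145 CPM in 1C-MIM 1 to 5. It fell by 0.82 on the log2 scale (SE 0.094; adjusted p by edgeR = 0.000179). Among 5 adipocyte markers 1 was higher and 0 lower, and they summed to 139 to 180 CPM in Control and 129 to 244 CPM in 1C-MIM. Properdin, Cfp, which stabilises the convertase, fell by 0.83 (SE 0.14) and factor B, Cfb, by 0.50 (SE 0.10).

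Of 8 tested initiation genes of the classical and lectin pathways, 1 fell, 1 rose and 6 did not pass the test. C1ra, a protease carried by C1q, was at 21.4 ± 2.97 CPM in Control and 16.6 ± 2.89 CPM in 1C-MIM (log2 fold change -0.37, SE 0.12; adjusted p by edgeR = 0.0482), with overlapping groups. That call was lost under 13 of 23 alternatives, including 7 of the 10 that leave out 1 library (Control 2, 1C-MIM 2 and 1C-MIM 5 were those whose removal kept it; the highest adjusted p was 0.116, without 1C-MIM 3). Masp2, a protease of the lectin pathway, rose by 0.40 (SE 0.11; adjusted p by edgeR = 0.0228). Its call was lost when Control 4, 1C-MIM 2 or 1C-MIM 4 was left out, with an adjusted p of 0.0541 to 0.0637, under scaling by library totals, and on removal of both Control 1 and Control 5, where the edgeR adjusted p was 0.0780. The ficolin gene Fcna had a log2 fold change of -0.57 (SE 0.23; adjusted p by edgeR = 0.0933), and -0.73 without Control 2 (adjusted p = 0.0170).

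None of the 3 tested terminal pathway genes passed the edgeR test, at an adjusted or an unadjusted p under 0.05. C6 had -0.30 (SE 0.35), C8g -0.14 (SE 0.18) and C7 0.03 (SE 0.30) on the log2 scale. Of 9 tested regulators, 1 was lower and 0 higher. This was Clu, the secreted chaperone clusterin that blocks the membrane attack complex, with 111 to 166 CPM in Control and 72.8 to 84.4 CPM in 1C-MIM (log2 fold change -0.84, SE 0.094; adjusted p by edgeR = 0.000156). The membrane attack inhibitor Cd59a (-0.16, SE 0.10) and Csmd1 (0.66, SE 0.40) did not pass.

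Of 6 tested receptors, 3 were lower and 0 higher, beside 11.8% of all tested genes lower. Itgax, the alpha chain of complement receptor 4, gave 3.46, 2.09, 2.41, 2.44 and 3.40 CPM in Control and 0.829, 0.859, 0.465, 0.834 and 0.761 CPM in 1C-MIM (log2 fold change -1.87, SE 0.20; adjusted p by edgeR = 0.000123). Its decrease was larger than that of any of the 9 members in value, and that difference was not tested. Itgb2, the beta chain shared by these receptors, fell by 0.99 (SE 0.14). Itgam, the alpha chain of complement receptor 3, fell by 0.80 (SE 0.24; adjusted p by edgeR = 0.0322). The Itgam call was lost without Control 3 (-0.60), without 1C-MIM 4, 1C-MIM 5 or Control 4, and with no filter on low counts (-0.79), at an adjusted p of 0.0528 to 0.0749.

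**Figure D3:**
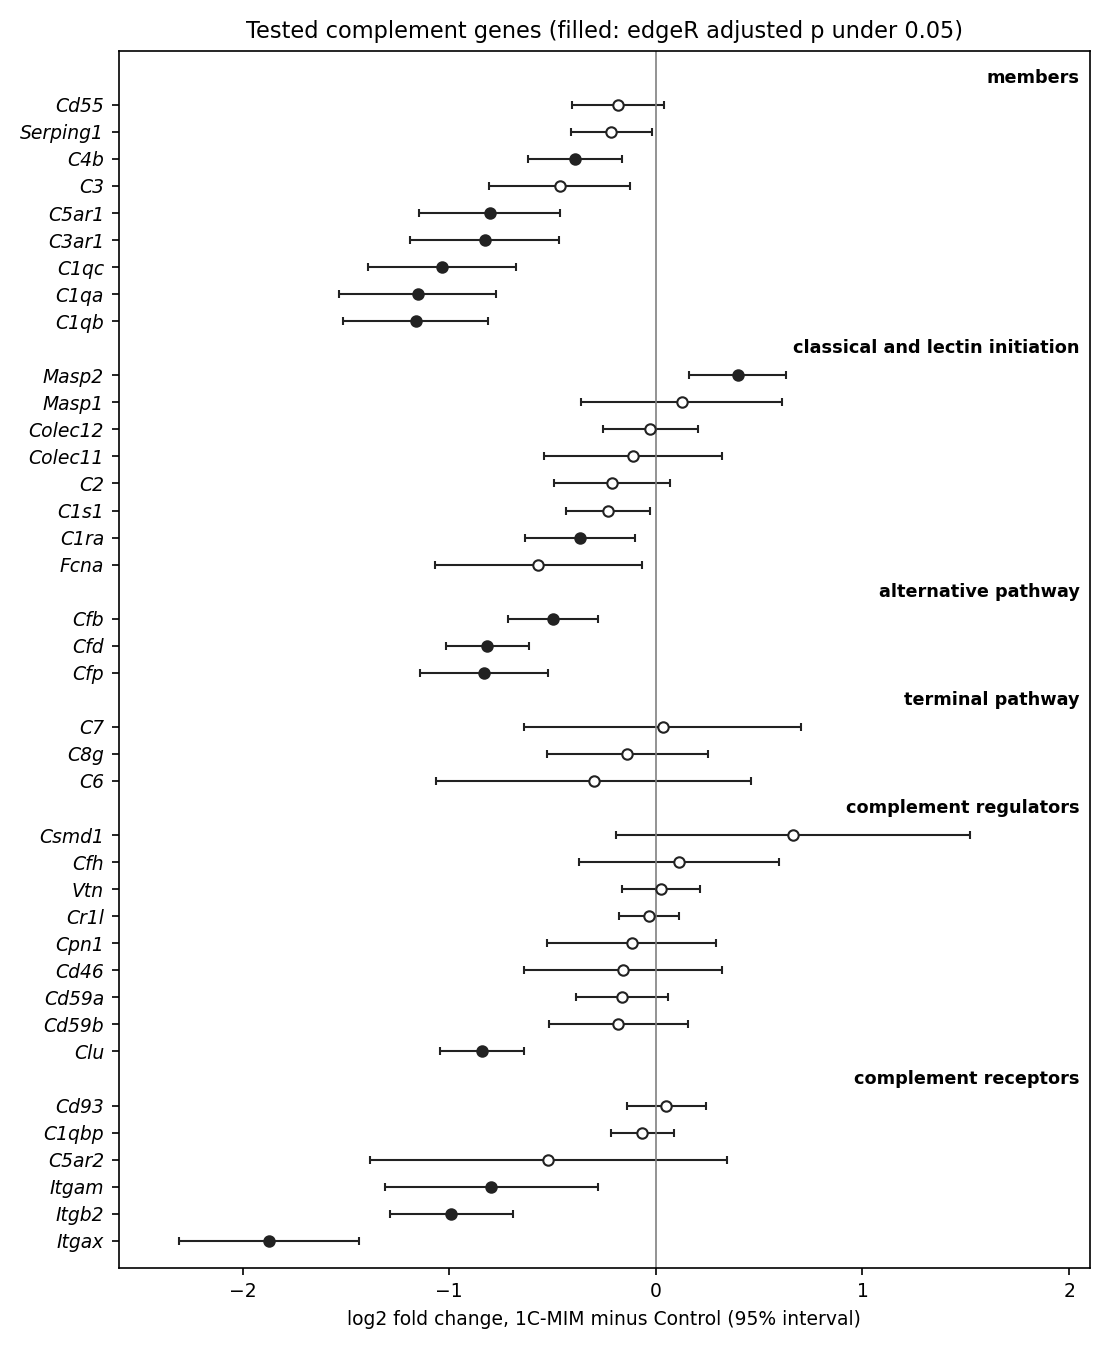
Log2 fold changes, 1C-MIM minus Control (x axis), with 95% intervals for the 9 members and 29 other tested complement genes by role; filled points have an edgeR adjusted p under 0.05. The C1q chains, C3ar1, C5ar1 and the alternative pathway genes lie left of 0. Cd93, right of 0 among the other receptors, and the terminal pathway genes have intervals that include 0.

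**Figure D4:**
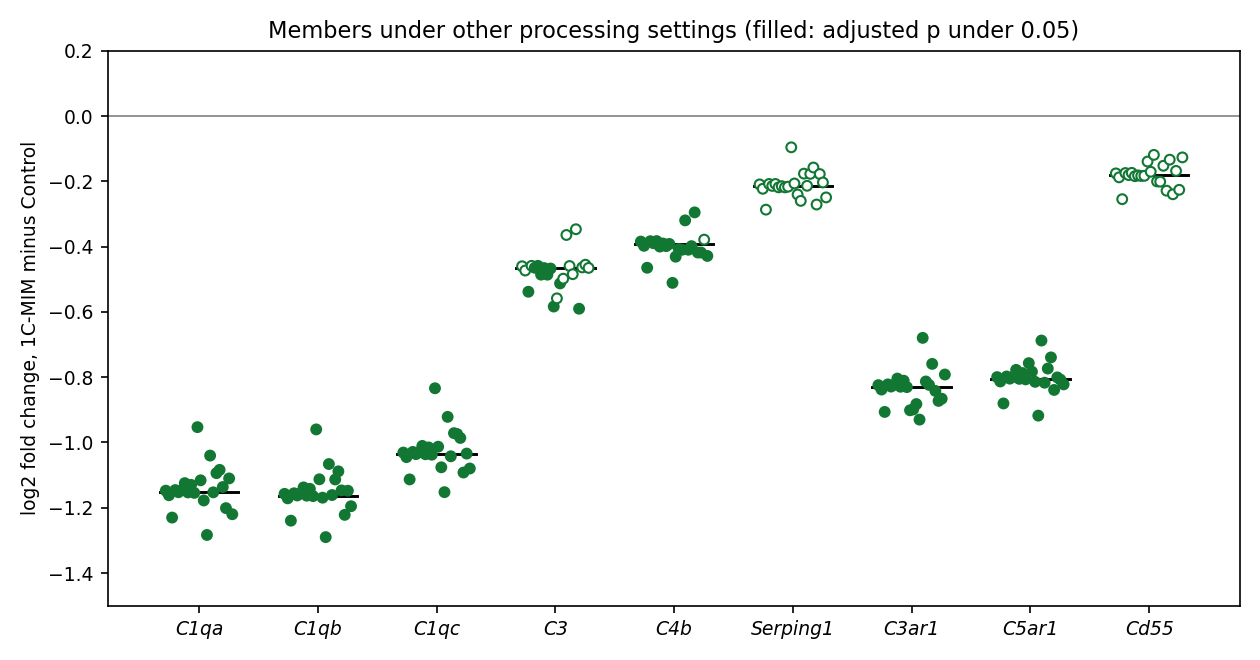
Log2 fold changes of the 9 members (y axis) under 22 alternative fits, each point a fit, filled where its adjusted p is under 0.05, with the line at the reported value. All points are below 0. The points of C3 are divided between filled and open, and C4b has 1 open point, the fit without 1C-MIM 4.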

How the data were processed

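Per the file headers, each library has a table of RefSeq transcripts with the columns count, FPKM and TPM. The count values are raw, as deposited, and a read in several isoforms is counted for each. The FPKM values, scaled by the authors per kilobase and library total, served only to recover transcript lengths, and the TPM values deposited by the authors were not used. Per the submitters' processing notes, the build was GRCm39, and DESeq2 1.28.0, Subread 2.0.1 with featureCounts, bedtools 2.30.0, StringTie 2.2.1, STAR, Picard 2.27.4, Salmon 1.5.2, SAMtools 1.15.1 and Trim Galore 0.6.7 are named without a role. The strandedness of counting was a setting not given in the sources used here.

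Each symbol was represented by its transcript with the largest total count. After filterByExpr, 13880 genes were scaled with TMM and compared with the quasi-likelihood F test of edgeR 4.0.16 (robust; R 4.3.3), with Benjamini-Hochberg adjustment over all of them. Log2 CPM used a prior count of 2. Ratios were compared by exact permutation. Alternatives used DESeq2 1.42.0, limma 3.58.1, other scalings, filters and libraries, and removal of the length trend (natural splines, 3 inner knots). Named beside the members are the 3 genes with the smallest p of each other complement list, every called one, and the 5 genes of nearest profile, with a mean log2 CPM of at least 0. The members, lists and alternatives were chosen with earlier results of these data known. Promoter sequences are from RefSeq, build GRCm38.p6. Library depth of 28521250 to 31771291 counts sets the counting error, a part of the spread that the tests use.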

Additional observations from a re-analysis of the deposited data

Results flagged for a closer look

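In 2 of 62 groups of 5 values, 1 library lay far from the others by Dixon's criterion, which chance meets in about 1 of 20 groups. C4b was at 70.1 CPM in Control 3 and 55.7 to 56.6 CPM in the other Controls. Itgax was at 0.465 CPM in 1C-MIM 3 and 0.761 to 0.859 CPM in the other 1C-MIM libraries.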

How the results depend on the processing

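Across 23 alternatives, 5 to 7 members were lower and 0 higher (5 without 1C-MIM 4), and 6 to 10 other complement genes were lower. C1qa, C1qb, C1qc, C3ar1 and C5ar1 passed the threshold under all 23, Serping1 and Cd55 under none, and the member fold changes stayed negative. Library totals alone gave 2895 genes lower, 606 higher and 0 other complement genes higher. Without Control 1 and Control 5 together these were 976, 832 and 0, and at an adjusted p under 0.1, 2114 genes were higher. Leaving out each library in turn gave 941 to 1885 genes lower (1057 without 1C-MIM 3, 941 without 1C-MIM 4), 741 to 1559 higher (902 without Control 4, 843 without 1C-MIM 3, 741 without 1C-MIM 4) and 0 to 1 other complement genes higher. The causes were not tested.

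The labels do not say whether the replicate numbers pair the libraries. The deviations of same-numbered libraries correlated at -0.075 to 0.387, 3 of 5 over 0.1. Of the 5 Control libraries, 2 correlated best with their own number. Such correlations cannot settle whether the libraries were paired. With the replicate number as a block, 7 members and 7 other complement genes were lower, with 1965 genes lower and 1932 higher over all. Permuting signs within the same-numbered pairs, where no p below 0.0625 is possible, gave differences of -0.31 (C1q chains to macrophage markers), 0.69 (C4b to C1q chains) and 0.87 (Serping1 to C1q chains), with exact permutation adjusted p = 0.109 for each.

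Leaving out each library in turn, the difference ranged from -0.043 to 0.016 for C1qb to C1qa, from -0.074 to 0.027 for C3ar1 to C5ar1 and from 0.47 to 0.72 for C3 to the C1q chains, past the threshold without Control 2 (0.72). With the length trend removed, chosen after seeing the data, C4b to the C1q chains differed by 0.38 and was no longer past the threshold. The sign of C7 depended on the setting: -0.30 to 0.20 with each library left out, -0.035 with library totals, -0.047 with limma-voom, -0.036 with the replicate block and -0.15 without Control 1 and Control 5. Without those 2 libraries C8g was at 0.020 and Cd59a at 0.0045, and C8g was at 0.053 with the length trend removed. The fewest reads of a member in a library were 66 for C3ar1 and 56 for C5ar1, and their SEs of 0.17 and 0.16 were like those of C1qa and C1qc, of 0.17 and 0.16.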
